A study of Mus musculus with 22 samples.

Results

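Cytochrome P450 genes were described in mouse intestinal tissue from an experiment that crossed PFOS exposure with the kind of dietary fibre. Genes were taken by symbol (Cyp, a family number, subfamily letters and a gene number) and kept when they had 10 or more counts in at least 3 of the 22 libraries. Of the 46603 genes in the deposited table, 94 symbols matched this pattern and 39 genes met the count threshold. Symbols such as Cyp51 and Cyp3a41a have another form and were not included. The genes were thus chosen by their counts in these libraries, so having been kept is no result. Just inside the threshold lay Cyp2r1, Cyp4f17 and Cyp1a1, whose third-highest counts were 20, 18 and 13. Just outside lay Cyp4f39, Cyp24a1 and Cyp2c67, with third-highest counts of 9, 9 and 8. All 39 genes also passed the expression filter used for testing.

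P450 enzymes are haem-containing monooxygenases that use electrons from NADPH, passed on by P450 oxidoreductase or by ferredoxin, to insert oxygen into lipids, steroids, retinoids, bile acids and foreign compounds. In the small intestine the absorptive enterocyte carries most of the drug-metabolising forms and meets ingested compounds before the liver does. The nuclear receptors PXR (Nr1i2), CAR (Nr1i3) and PPAR-alpha and the aryl hydrocarbon receptor control the transcription of many of these genes.

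The libraries came from intestinal tissue of wild-type male C57BL/6 mice, an inbred strain, that were 7 weeks old at the start and were fed for 7 weeks. Every diet was irradiated, held 8% fibre by weight and gave 35% of energy as fat, 20% as protein and 45% as carbohydrate. The fibre was cellulose in Control and PFOS, inulin in Inulin and Inulin_PFOS, and pectin in Pectin and Pectin_PFOS. Cellulose is a poorly fermented glucan, and inulin (a fructan) and pectin (a galacturonan) are fermented by gut bacteria. The groups named with PFOS received perfluorooctanesulfonic acid, a persistent fluorinated surfactant, by way of the drinking water, at a daily dose of 3 µg per kg of body weight. Because the treatment entry names PFOS for unexposed samples too, exposure was taken from the title. Control, PFOS, Pectin and Pectin_PFOS had 4 libraries each, and Inulin and Inulin_PFOS had 3 each. They are numbered as biological replicates. Whether they shared a cage or were pooled is not given in the sources used here, and p-values measure the spread between these libraries.

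Totals per library ran from 17613322 to 20261370 counts, of which 2.85% to 14.9% fell on mitochondrial genes, and Pectin_PFOS 1 had the fewest genes with 10 or more counts (12919, against up to 14926). The gut segment is not given. Summed ileum markers (7 genes) reached 3892 to 7112 counts scaled to library size (CPM) in Control, and summed colon markers (7 genes) 99.2 to 237 CPM. Summed proximal small intestine markers (8 genes) reached 1540 to 3536 CPM in Control. Colon markers reached up to 666 CPM in Inulin_PFOS and 669 in Pectin_PFOS. The segment was not inferred from these lists. Summed enterocyte markers (12 genes) varied most within Pectin, from 15425 CPM in Pectin 4 to 65934 in Pectin 3. In such bulk tissue, fewer cells of a type and less RNA per cell cannot be told apart.

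The upstream sequences of 5 genes are shown because they frame 3 points in the results. Cyp4f14 and Cyp4f16 are genes of the same cluster. With PFOS, Cyp4f14 passed an adjusted p under 0.05 on pectin alone and Cyp4f16 on inulin alone. Both estimates were negative on inulin and positive on pectin, and no test between the 2 genes was made. Cyp2c65 and Cyp2c66 are close copies that were both lower in every exposed inulin library. Cyp1b1 is 1 of the 2 genes that fell with PFOS on pectin where 9 rose. Each run is the 250 bases before the RefSeq start on GRCm38.p6, 5′ to 3′ on the strand of the gene. Capitals mark matches to any of the motifs named after them, and the Cyp4f14 window holds none. Cyp4f14 lies at chr17:32917343-32917592, minus strand, Cyp4f16 at chr17:32536307-32536556, plus strand, Cyp2c65 at chr19:39060756-39061005, plus strand, Cyp2c66 at chr19:39113648-39113897, plus strand and Cyp1b1 at chr17:79715062-79715311, minus strand.
Cyp4f14: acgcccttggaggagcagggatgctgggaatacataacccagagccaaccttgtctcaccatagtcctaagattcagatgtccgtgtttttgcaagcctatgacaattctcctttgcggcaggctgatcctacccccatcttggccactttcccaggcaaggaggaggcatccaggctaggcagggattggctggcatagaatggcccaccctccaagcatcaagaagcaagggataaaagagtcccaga
Cyp4f16: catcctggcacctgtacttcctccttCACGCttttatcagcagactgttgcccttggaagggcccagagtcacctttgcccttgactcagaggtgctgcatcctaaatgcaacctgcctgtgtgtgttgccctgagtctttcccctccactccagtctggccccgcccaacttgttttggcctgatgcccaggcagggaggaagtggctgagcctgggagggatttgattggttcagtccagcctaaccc
Cyp2c65: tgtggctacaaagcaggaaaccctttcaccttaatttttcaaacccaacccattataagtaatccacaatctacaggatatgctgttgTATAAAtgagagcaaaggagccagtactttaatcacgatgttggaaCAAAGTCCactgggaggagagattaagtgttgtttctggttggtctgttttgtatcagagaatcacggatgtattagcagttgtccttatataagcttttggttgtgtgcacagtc
Cyp2c66: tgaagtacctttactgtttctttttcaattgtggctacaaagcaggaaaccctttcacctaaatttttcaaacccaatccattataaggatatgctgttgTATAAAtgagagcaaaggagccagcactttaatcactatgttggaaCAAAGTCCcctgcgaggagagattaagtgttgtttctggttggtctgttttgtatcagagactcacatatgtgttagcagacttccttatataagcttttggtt
Cyp1b1: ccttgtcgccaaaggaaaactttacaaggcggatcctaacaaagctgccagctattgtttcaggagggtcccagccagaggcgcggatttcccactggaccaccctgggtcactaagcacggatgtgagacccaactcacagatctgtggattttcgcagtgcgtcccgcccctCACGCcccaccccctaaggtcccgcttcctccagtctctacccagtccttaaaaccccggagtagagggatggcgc

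RefSeq entries were found for 31 of the 39 genes, and 9 motifs were searched on both strands in their windows and in 32851 windows of the same length. Each P450 gene had a single window, while the 32851 could hold several windows of a gene. The shares thus count unlike units. The TATA box hexamer (TATAAA), searched at any position, occurred in 12 of 31 P450 windows (38.7%), against 12.4% of all windows. Its position was not weighed, so these are shares of hexamer matches and not of working TATA boxes. In Cyp1a1, Cyp2c55 and Cyp2e1 the hexamer began 30, 29 and 31 bases before the start. In Cyp2c65, Cyp2c66 and Cyp3a11 it lay much farther away, at 162, 150 and 234 bases. The HNF4 motif (CAAAGTCC), whose factor is a main regulator of enterocyte genes, was present in 5 windows (Cyp2c65, Cyp2c66, Cyp2c68, Cyp3a11 and Cyp4f18; 16.1%), against 1.2% of all. Cyp2c65, Cyp2c66 and Cyp2c68 are related genes of the same cluster, so their matches need not be separate occurrences. The core of the aryl hydrocarbon receptor motif (GCGTG, which reads CACGC on the other strand) occurred in 8 windows (25.8%, against 28.2% of all), Cyp1a1, Cyp1b1 and Cyp4f16 among them. The nuclear receptor hexamer (AGGTCA) was found in Cyp3a11, Cyp3a25, Cyp3a44 and Cyp3a59 (12.9%, against 14% of all). The GATA factor motif AGATAA was present in 6 windows (19.4%, against 9.99% of all). The motif of the CDX factors, TTTATG, was present in 2 (6.45%, against 10.8%). Matches to direct repeats of that hexamer with spacers of 1 and 4 bases, and to the HNF1 palindrome, were at 0 in the 31 windows, and 11, 5 and 3 windows of all held them. Windows of the copies Cyp3a25 and Cyp3a59 matched at 239 of 250 positions without gaps.

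Levels between genes are compared in TPM, the transcript abundance that the authors scaled by gene length and depth. Cyp4f14, a leukotriene and fatty acid hydroxylase, was the most abundant P450 gene by its mean over the 22 libraries (736 TPM), with 34.8% of the summed level of the 39 genes. Cyp3a13, a drug- and steroid-oxidising enzyme, followed at 266 TPM. The next 5 were Cyp4f16 (166), the fatty acid hydroxylases Cyp4v3 (114) and Cyp4b1 (106), Cyp3a25 (104) and Cyp2d26 (103). Positions 8 to 10 were held by Cyp3a11 (61.9), the main PXR-induced Cyp3a of mouse liver, Cyp4f13 (61.5) and the mitochondrial sterol 27-hydroxylase Cyp27a1 (55.3). These 10 genes made up 83.9% of the summed level. The other 29 ranged down to 0.159 TPM for Cyp1a1, the classical aryl hydrocarbon receptor target, and 9 of the 39 had a mean under 1 TPM.

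Many of these genes lie side by side. On GRCm38 (GENCODE M21 spans), chromosome 15 held 7 Cyp2d genes within 424 kb, chromosome 17 held 5 Cyp4f genes within 441 kb, chromosome 19 held 4 Cyp2c genes within 734 kb and chromosome 5 held 4 Cyp3a genes within 339 kb. Genes lying apart include Cyp27a1 (chr1:74713574-74737892), Cyp1b1 (chr17:79701537-79715061), Cyp26b1 (chr6:84571414-84593908) and Cyp4v3 (chr8:45304944-45333216), while Cyp2d26 (chr15:82790101-82794294) lies in the chromosome 15 cluster and Cyp4f14 (chr17:32905070-32917342) and Cyp4f16 (chr17:32536558-32551798) in that of chromosome 17. All are protein-coding. Copies are similar in sequence. In 17 of the 39 genes over 10% of the 31-base stretches of the transcripts also occurred in another gene. Cyp2c65 and Cyp2c66 shared 33.5% and 32.6% of theirs with each other, Cyp3a25 and Cyp3a59 41.2% and 43.5%, and Cyp4f16 shared 23.1% with Cyp4f37. Their counts are uncertain wherever reads were split between copies. Exons of another gene overlap Cyp2s1, Cyp2u1, Cyp4v3 and Cyp2d12, among 8 such genes.

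Summed over the 39 genes, Control libraries held 2720.3, 2558, 2391 and 1564 TPM and PFOS libraries 3209.7, 3038, 2057 and 3195. Inulin libraries held 3441, 2506 and 1996 TPM, and Inulin_PFOS libraries 1143, 1539 and 1329. In Pectin the sums were 1103, 1257, 1353 and 818 TPM, and in Pectin_PFOS 2925, 1713, 2439.6 and 2225. Each Inulin_PFOS library lay below each Inulin library, and each Pectin_PFOS library lay above each Pectin library, while Control and PFOS overlapped. The group means were 2308 ± 514 (SD, n = 4) in Control, 2875 ± 551 in PFOS (n = 4), 2647 ± 733 in Inulin (n = 3), 1337 ± 198 in Inulin_PFOS (n = 3), 1133 ± 234 in Pectin (n = 4) and 2326 ± 503 in Pectin_PFOS (n = 4). The sums were not tested. TPM lack the TMM scaling between libraries (factors 0.749 to 1.22) that the CPM values and the tests used. The order of the groups can therefore differ in CPM.

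**Figure D1:**
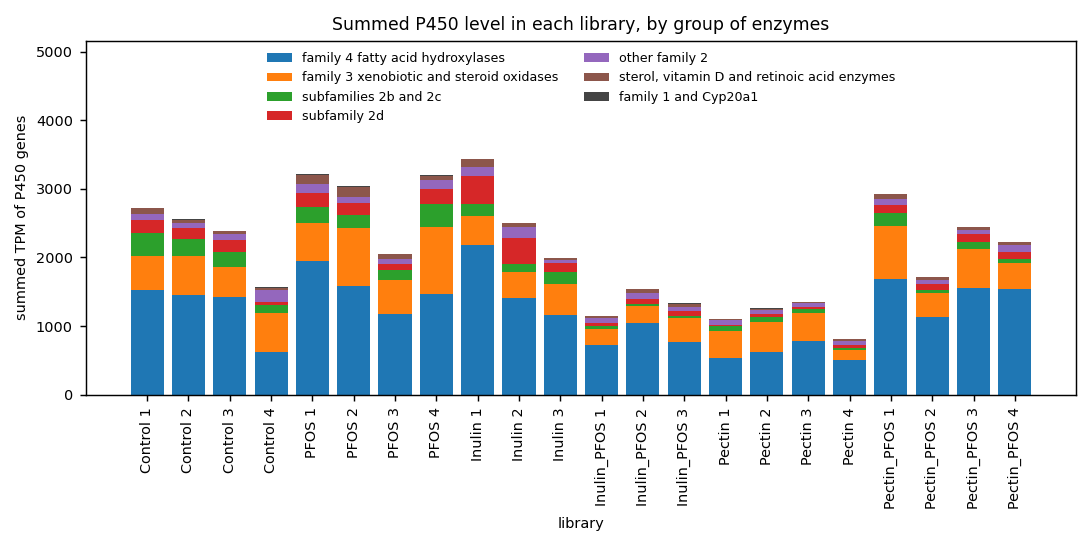
Summed TPM of the 39 P450 genes (y axis) in each of the 22 libraries (x axis), stacked by group of enzymes. Family 4 makes up the largest block in 22 of 22 libraries, and the 4 Pectin and 3 Inulin_PFOS libraries are lower than the 4 Pectin_PFOS libraries.

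The largest block was the family 4 fatty acid hydroxylases (8 genes). Their summed level was 1255 ± 426 TPM in Control, 1545 ± 323 in PFOS, 1583 ± 530.3 in Inulin, 848 ± 173 in Inulin_PFOS, 610.2 ± 126 in Pectin and 1475 ± 241 in Pectin_PFOS. Subfamilies 2b and 2c (6 genes, among them arachidonic acid epoxygenases) spanned a wider ratio, from 231 ± 90.6 TPM in Control and 228 ± 84.6 in PFOS to 32.9 ± 4.89 in Inulin_PFOS and 58.5 ± 19.1 in Pectin. Subfamily 2d (7 genes) ran from 307 ± 155 TPM in Inulin to 34.8 ± 6.03 in Pectin. Family 3 (5 genes) ran from 716 ± 229 TPM in PFOS to 275 ± 54.0 in Inulin_PFOS. In TMM-scaled CPM family 3 summed to 733, 1445, 779.7 and 1762 in PFOS and to 1959, 859, 1324 and 793 in Pectin_PFOS. Family 4 summed to 2384, 2233, 1645 and 2450.1 CPM in PFOS and to 3788, 2161, 3177 and 2642 in Pectin_PFOS. The order of PFOS and Pectin_PFOS by mean thus depended on the unit.

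**Figure D2:**
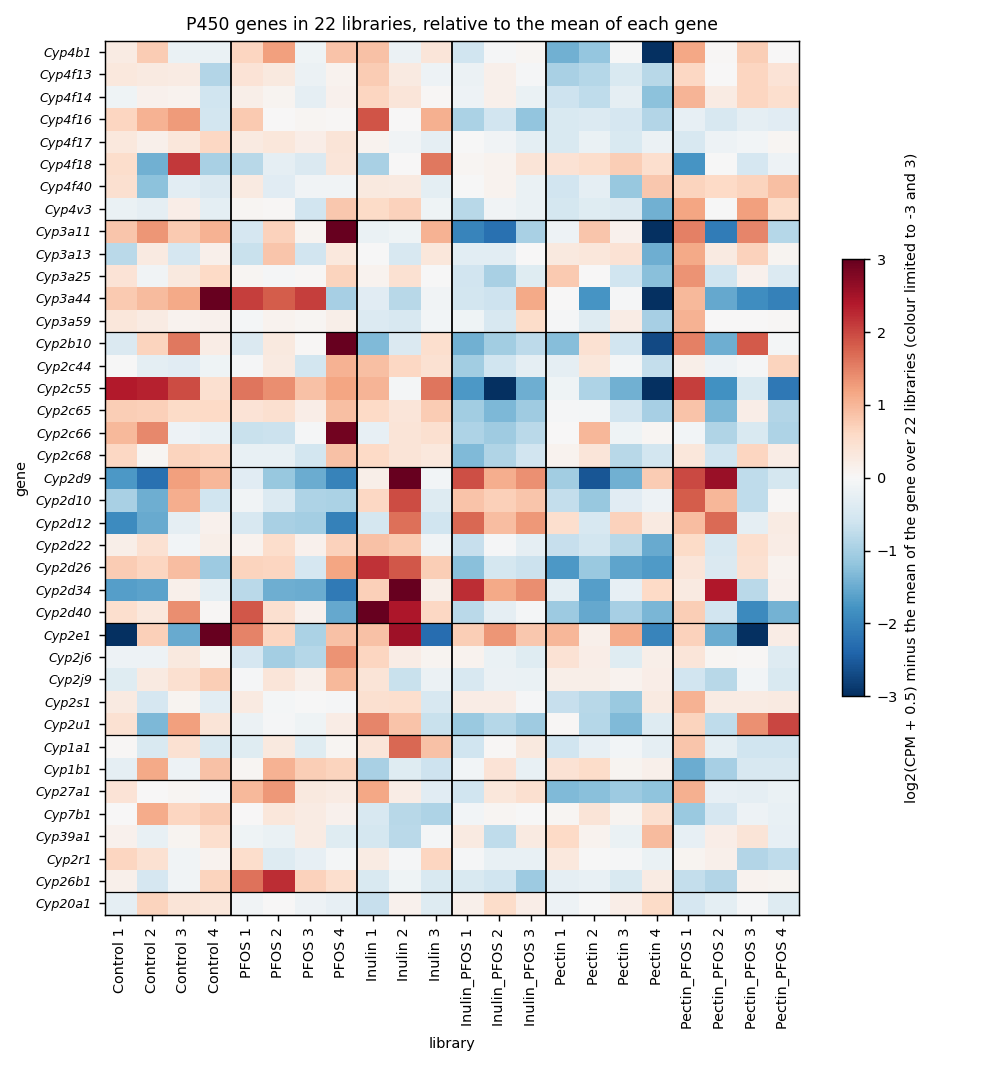
Level of each P450 gene (y axis) in each library (x axis) as log2 CPM minus the mean of the gene over the 22 libraries, with horizontal lines between groups of enzymes. Single libraries stand apart for single genes, such as PFOS 4 for Cyp2b10, Cyp3a11 and Cyp2c66.

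Between Pectin and Pectin_PFOS, 9 P450 genes rose (Cyp4f14, Cyp4f13, Cyp4v3, Cyp4b1, Cyp2d26, Cyp2d22, Cyp27a1, Cyp2u1 and Cyp2s1), and Cyp1b1 and Cyp7b1 fell. By the quasi-likelihood test of edgeR at an adjusted p under 0.05, 11 of 39 P450 genes were called in Pectin_PFOS vs Pectin (9 higher, 2 lower), against 20.8% of the 15763 genes tested (11.4% higher, 9.43% lower). That is 28.2% of the P450 genes, a share near the background and no result about the family. With library totals in place of TMM the split was 7 higher and 3 lower, with the share over all genes not given here. The median log2 fold change was 0.65 over the 39 genes and −0.06 over all genes tested.

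Cyp4f14 read 785, 705, 999 and 515 CPM in Pectin and 2425, 1431, 1863 and 1711 in Pectin_PFOS. The lowest exposed library lay above the highest unexposed one (log2 fold change 1.31 ± 0.23 (SE), adjusted p = 0.00286). Values with ± in later brackets are log2 fold changes with SE. Its neighbour Cyp4f13 read 31.6, 34.3, 45.1 and 34.7 CPM without and 95.7, 63.2, 98.5 and 83.7 with PFOS, again without overlap (1.23 ± 0.24, adjusted p = 0.00416). Cyp4f16, from the same cluster, was not called. It read 154, 157, 147 and 115 CPM in Pectin and 177, 151, 174 and 166 in Pectin_PFOS, with overlapping ranges (0.22 ± 0.34, adjusted p = 0.657).

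Cyp4v3, an omega-hydroxylase of medium-chain fatty acids, read 228, 255, 243 and 120.4 CPM in Pectin and 743, 324, 764 and 476 in Pectin_PFOS (1.45 ± 0.32, adjusted p = 0.00651). The groups did not overlap, and Pectin_PFOS 1 and 3 were the high exposed libraries. Cyp4b1, which hydroxylates fatty acids and activates some foreign compounds, read 45.6, 55.8, 125 and 14.8 CPM and 282, 127, 209.9 and 126 (1.63 ± 0.46, adjusted p = 0.0193). Pectin 4 was the lowest library for this gene and Pectin_PFOS 1 the highest of the pair, and without Pectin_PFOS 1 the adjusted p was 0.0734. Without Pectin 1 it was 0.0608 and without Pectin 2 0.0538.

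Among the Cyp2d genes, Cyp2d26 had the highest mean level (103 TPM, against 16.4 for Cyp2d22). It read 27.0, 41.8, 30.0 and 27.5 CPM in Pectin and 118, 67.6, 125 and 98.2 in Pectin_PFOS, with no overlap (1.70 ± 0.39, adjusted p = 0.00858). Cyp2d22, the mouse counterpart most often compared with human CYP2D6, read 20.1, 22.3, 18.4 and 11.3 and 49.5, 23.6, 46.7 and 38.8 CPM (1.14 ± 0.26, adjusted p = 0.00767). Here too the lowest exposed library exceeded the highest unexposed one.

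Cyp27a1, which starts the acidic pathway of bile acid synthesis, read 20.3, 21.4, 24.1 and 22.1 CPM in Pectin and 109, 43.3, 42.8 and 44.6 in Pectin_PFOS (1.44 ± 0.34, adjusted p = 0.00971). Pectin_PFOS 1 stood well above the other exposed libraries, which lay close together. Without that library the log2 fold change was 0.99 (adjusted p = 0.0489). Cyp7b1, the oxysterol 7-alpha-hydroxylase that acts after it, moved the other way, with 0.943, 1.29, 0.944 and 1.42 CPM in Pectin and 0.132, 0.468, 0.733 and 0.678 in Pectin_PFOS (−1.17 ± 0.40, adjusted p = 0.0419). The groups did not overlap. At these low levels the call was lost in 9 of 22 omissions of single libraries (adjusted p up to 0.115, without Pectin_PFOS 1) and in 3 of 7 other settings.

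The remaining genes called on pectin were less stable. Cyp2u1, which hydroxylates long-chain fatty acids, read 15.9, 8.42, 5.89 and 11.9 CPM in Pectin and 25.1, 8.96, 41.3 and 63.9 in Pectin_PFOS, with overlap (1.73 ± 0.53, adjusted p = 0.0296). Its call was lost in 6 omissions, with the highest adjusted p, 0.0995, without Pectin_PFOS 4. Cyp2s1, an extrahepatic enzyme of epithelia, read 37.0, 33.2, 27.3 and 72.7 CPM and 124, 70.7, 70.8 and 71.9 (0.98 ± 0.28, adjusted p = 0.0197). Pectin 4 lay inside the exposed range, and the call was lost without Pectin 1, Pectin 2 or Pectin_PFOS 1 (adjusted p = 0.0602, 0.0645 and 0.0892).

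Cyp1b1, an aryl hydrocarbon receptor target found mainly in stromal cells, read 5.88, 6.46, 4.50 and 4.78 CPM in Pectin and 1.19, 1.87, 2.87 and 2.87 in Pectin_PFOS, with every exposed library lower (−1.29 ± 0.35, adjusted p = 0.0171). Without Pectin_PFOS 1 the adjusted p was 0.0625. Leaving out that library lowered the count of called P450 genes from 11 to 6, and leaving out Pectin 2 lowered it to 7. Cyp2d26, Cyp4f13, Cyp4f14, Cyp27a1, Cyp2d22 and Cyp4v3 were called in each of the 22 omissions and 7 other settings.

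Cell type markers moved in the same comparison. Of 12 enterocyte markers 5 were called higher and none lower (summed level 15425 to 65934 CPM in Pectin and 51923 to 99247 in Pectin_PFOS). Of 8 fibroblast markers 5 were called lower, and their summed level was 464 to 590.1 CPM against 124 to 253. Paneth cell markers were called lower in 5 of 7 (5627 to 10966 CPM against 1827 to 5391). Smooth muscle markers were called in 0 of 8, with 8 negative values. No marker of these 4 lists was at 0 across either group. Of the other lists, ileum markers were called higher in 4 of 7 and goblet cell markers in 2 of 7. Macrophage markers were called lower in 1 of 7, B and plasma cell markers in 1 of 7 and adipocyte markers in 1 of 6. Mitochondrial genes took 3.88% to 7.36% of counts in Pectin and 2.85% to 3.51% in Pectin_PFOS. The part of these differences in the P450 result was not tested.

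On inulin the 2 P450 genes that changed with PFOS, Cyp2d26 and Cyp4f16, both fell. In Inulin_PFOS vs Inulin 2 of 39 genes were thus called, against 0.159% of all genes tested in either direction and 0.0888% lower. The median log2 fold change was −0.48 over the 39 genes and −0.01 over all genes, and 32 of the 39 values were negative. Cyp2d26 read 413, 334 and 152 CPM in Inulin and 37.6, 63.4 and 58.2 in Inulin_PFOS, with every exposed library lower (−2.50 ± 0.47, adjusted p = 0.0282). Cyp4f16 read 776, 213 and 440.5 CPM without and 108, 142 and 93.0 with PFOS, also without overlap (−2.06 ± 0.40, adjusted p = 0.0368). Inulin 1 was the highest library for both genes.

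Both calls held without Inulin 2 or Inulin 3. Without Inulin 1 the adjusted p was 0.205 for Cyp2d26 and 0.392 for Cyp4f16, and neither was called without Inulin_PFOS 1, 2 or 3 (0.173, 0.0667 and 0.130 for Cyp2d26; 0.174, 0.0667 and 0.199 for Cyp4f16). Cyp4f16 was also not called without Pectin 1 or Pectin_PFOS 3, which enter only through the shared spread and scaling (adjusted p = 0.0529 and 0.0547). With no library left out, limma called neither gene (adjusted p = 0.0757 for Cyp2d26 and 0.0876 for Cyp4f16). Nor did edgeR on the 2 groups alone (0.0927 and 0.14). With the replicate number as a block Cyp2d26 was not called (0.0545).

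Other P450 genes had exposed libraries wholly below the unexposed ones on inulin without passing the test. In all, 15 of 39 did not overlap (12 lower, 3 higher), against 24.4% of the genes tested (12.1% lower, 12.2% higher). The Cyp2c genes were among them. Cyp2c65 read 103, 87.2 and 114 CPM in Inulin and 32.7, 26.2 and 32.0 in Inulin_PFOS (−1.75 ± 0.39, adjusted p = 0.0575). Each exposed library was well under each unexposed one, and the gene was called without Pectin 4, Pectin_PFOS 1 or Pectin_PFOS 2 (adjusted p = 0.0482, 0.0195 and 0.0241). Cyp2c55, an inducible epoxygenase, read 84.6, 39.7 and 127 and 12.2, 4.14 and 14.7 CPM (−3.02 ± 0.97, adjusted p = 0.137). Its unexposed libraries were widely spread. The copy Cyp2c66 was low throughout, at 0.482, 1.00 and 1.12 CPM and 0.113, 0.0552 and 0.163 (−2.90 ± 1.30, adjusted p = 0.236). For Cyp3a11 the values were 55.8, 59.2 and 134 CPM in Inulin and 16.0, 13.3 and 32.7 in Inulin_PFOS, again without overlap (adjusted p = 0.317).

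No marker of muscle, stroma or epithelium was called in that comparison. Log2 fold changes were positive for 8 of 8 smooth muscle markers (median 1.34; summed level 1175 to 3989.7 CPM in Inulin and 3197 to 9528 in Inulin_PFOS) and for 8 of 8 fibroblast markers (median 0.92). They were negative for 10 of 12 enterocyte markers (median −0.30; 54972 to 63920.0 CPM against 41718 to 55978). Paneth cell markers were positive in 7 of 7 (median 1.30; 1050 to 2024 CPM against 2052 to 4304). Goblet cell markers were positive in 7 of 7 (median 0.75; 7590 to 9339 CPM against 11188 to 19523), as were macrophage markers in 7 of 7 (median 1.13). The part of these lists in the P450 values was not tested.

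On cellulose no P450 gene was called by edgeR in PFOS vs Control, against 0% of all genes tested. At an unadjusted p under 0.05, 2 P450 genes and 842 of all genes passed, and DESeq2 and limma on log2(TPM + 1) also called 0 P450 genes. The smallest p-values belonged to Cyp26b1, Cyp2b10 and Cyp20a1. Cyp26b1, which degrades retinoic acid, read 1.72, 0.903, 1.35 and 2.66 CPM in Control and 5.68, 8.82, 2.74 and 2.35 in PFOS (1.56 ± 0.43, adjusted p = 0.822). PFOS 1 and PFOS 2 were the high libraries, and the groups overlapped. Cyp20a1, an enzyme with no assigned substrate, read 3.35, 6.96, 5.64 and 5.37 and 3.83, 4.19, 3.69 and 3.45 CPM (−0.49 ± 0.25, adjusted p = 0.822).

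**Figure D3:**
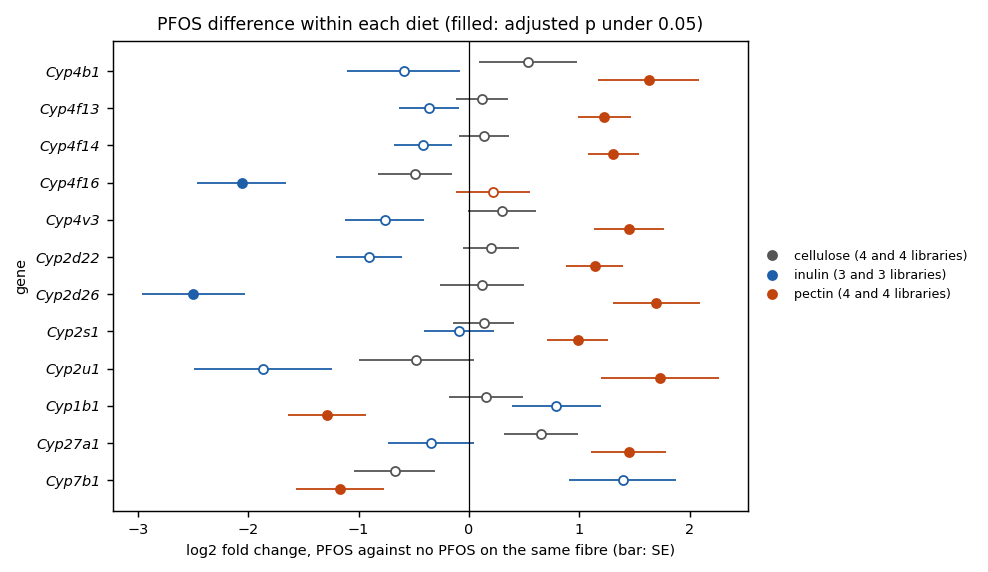
Log2 fold change (x axis, bars are SE) of PFOS against no PFOS within cellulose (grey), inulin (blue) and pectin (red) for the 12 P450 genes (y axis) called on inulin or pectin, with filled points at an adjusted p under 0.05. Cyp2d26 is at −2.50 on inulin, 0.12 on cellulose and 1.70 on pectin.

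The PFOS effects on inulin and on pectin share no library. In 25 of 39 genes (64.1%) the log2 fold change was negative on inulin and positive on pectin, against 32.6% of all genes tested. The reverse held for 4 (10.3%, against 35.6%). The difference between the 2 effects was tested as a comparison added after the data had been seen. It called 17 of 39 P450 genes (14 higher and 3 lower on pectin than on inulin), against 25.4% of all genes tested (13.1% higher, 12.3% lower). Since the comparison was chosen for this contrast, its count is a description of these libraries.

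Cyp2d26 had the smallest p, and its PFOS effect was larger on pectin than on inulin (log2 difference 4.19 ± 0.61 (SE), adjusted p = 0.00376). Family 4 supplied 5 of the 14 higher genes. These were Cyp4f14 (1.72 ± 0.35, adjusted p = 0.00566), Cyp4f13 (1.59 ± 0.36, adjusted p = 0.00765), Cyp4v3 (2.21 ± 0.48, adjusted p = 0.00652), Cyp4f16 (2.28 ± 0.52, adjusted p = 0.00767) and Cyp4b1 (2.22 ± 0.69, adjusted p = 0.0259). Of these 5, Cyp4f16 was called within inulin and not within pectin, and the other 4 were called within pectin and not within inulin (Cyp4f14 on inulin, −0.42 ± 0.26, adjusted p = 0.394).

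Also higher in the same test were 4 Cyp2c genes: Cyp2c55 (4.56 ± 1.25, adjusted p = 0.0163), Cyp2c65 (2.06 ± 0.50, adjusted p = 0.0100), Cyp2c68 (1.75 ± 0.48, adjusted p = 0.0160) and Cyp2c44 (2.71 ± 0.78, adjusted p = 0.0190). On pectin itself Cyp2c55 read 38.3, 21.8, 14.9 and 3.14 CPM without and 178, 11.5, 30.0 and 9.03 with PFOS, and only Pectin_PFOS 1 lay above the unexposed range. The other genes higher on pectin were Cyp2d22 (2.04), Cyp2d40 (4.76), Cyp2u1 (3.60) and Cyp27a1 (1.79). Those lower on pectin were Cyp1b1 (−2.08 ± 0.54, adjusted p = 0.0121), Cyp7b1 (−2.56 ± 0.63, adjusted p = 0.00993) and Cyp20a1 (−1.19 ± 0.38, adjusted p = 0.0301). In 22 omissions of single libraries Cyp27a1, Cyp2c44, Cyp4b1, Cyp2d40 and Cyp20a1 lost the call 2, 1, 3, 3 and 7 times, and the count fell to 12 without Inulin 1.

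The same comparison called 7 of 8 fibroblast and 7 of 8 smooth muscle markers lower on pectin than on inulin, and 4 of 12 enterocyte markers higher. Their medians on the log2 scale were −2.10, −2.37 and 1.10. Paneth cell markers were called lower in 6 of 7 (median −2.69) and macrophage markers in 5 of 7 (median −2.22). B and plasma cell markers were called lower in 3 of 7 and goblet cell markers in 2 of 7. Ileum markers were called higher in 2 of 7, and proximal small intestine markers higher in 1 of 8 and lower in 1. The part of these lists in the P450 difference was not tested.

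**Figure D4:**
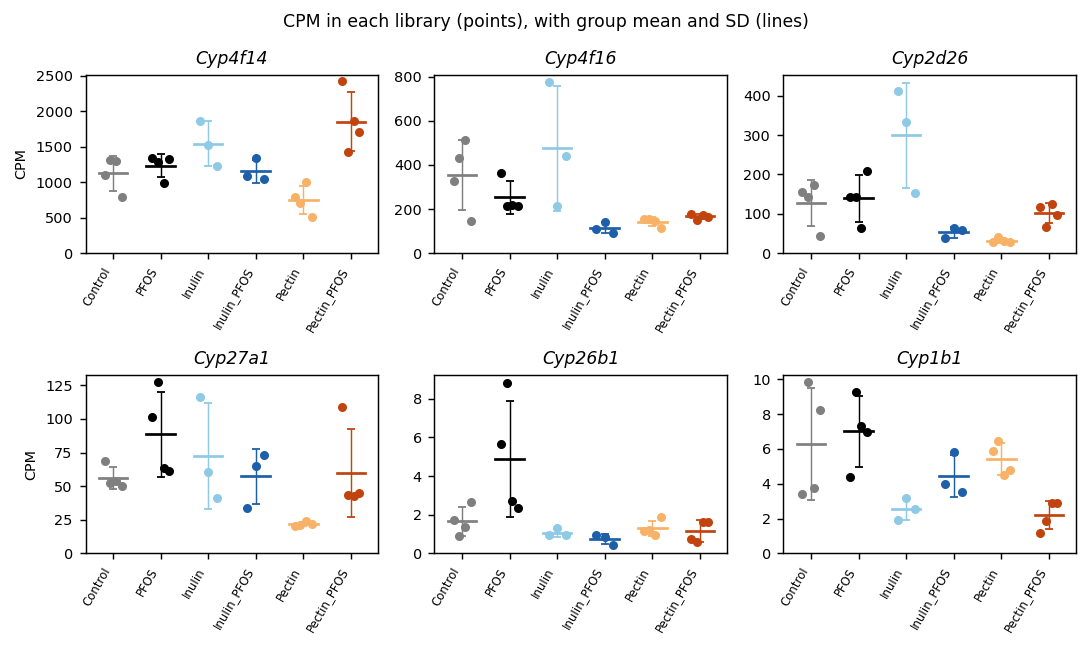
CPM (y axis) of 6 P450 genes in each library (points) of the 6 groups (x axis), with the group mean and SD as lines. Cyp4f14 and Cyp2d26 are higher in Pectin_PFOS than in Pectin in every library, Cyp4f16 is lower in Inulin_PFOS than in Inulin, and Cyp26b1 is highest in PFOS 1 and PFOS 2.

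Without PFOS, 5 P450 genes were lower on pectin than on cellulose. In Pectin vs Control 5 of 39 genes were called, all lower (Cyp2d26, Cyp27a1, Cyp4f16, Cyp2d22 and Cyp4f17), against 1.99% of all genes tested (0.958% lower), and 32 of 39 log2 fold changes were negative (median −0.58, against −0.08 over all genes). Cyp2d26 read 154, 144, 173 and 42.7 CPM in Control, and each Pectin library given above was lower (−2.02 ± 0.40, adjusted p = 0.0191). Control 4 was the lowest Control library and close to Pectin 2. Cyp27a1 read 68.5, 52.5, 53.9 and 50.4 CPM in Control against 20.3 to 24.1 in Pectin (−1.36 ± 0.34, adjusted p = 0.0462), with a gap between the groups.

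Cyp4f16 read 329, 433, 515 and 144 CPM in Control against 115 to 157 in Pectin (−1.31 ± 0.34, adjusted p = 0.0488), with Control 4 inside the Pectin range. Cyp2d22 read 37.1, 45.2, 31.4 and 37.1 CPM in Control, above 11.3 to 22.3 in Pectin (−1.07 ± 0.26, adjusted p = 0.0407). The scarce Cyp4f17 read 0.837, 0.690, 0.849 and 1.16 CPM in Control and 0.277, 0.430, 0.278 and 0.442 in Pectin (−1.28 ± 0.32, adjusted p = 0.0462). The Cyp2d22 and Cyp4f17 groups did not overlap. These calls stood close to the threshold. In the 7 other settings Cyp4f16 lost its call in 6, Cyp27a1 in 3, Cyp4f17 in 3, Cyp2d22 in 1 and Cyp2d26 in 1. Of 22 omissions, Cyp27a1 lost its call in 16, Cyp4f16 in 18, Cyp2d22 in 12, Cyp4f17 in 20 and Cyp2d26 in 2 (Pectin 1 and Pectin 3, adjusted p = 0.0512 and 0.0551), and 0 P450 genes were called when either of those libraries was left out. The highest adjusted p over omissions was 0.124 for Cyp27a1 (without Control 1), 0.113 for Cyp4f16 (without Control 2), 0.0955 for Cyp2d22 (without Pectin 4) and 0.112 for Cyp4f17 (without Pectin 1).

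Of the other genes, Cyp2c55, Cyp2d40 and Cyp3a44 had the lowest estimates on pectin without being called. Cyp2c55 read 220.2, 209, 163 and 58.4 CPM in Control, all above 3.14 to 38.3 in Pectin (−3.06 ± 0.84, adjusted p = 0.0612). Cyp3a44 read 62.5, 70.5, 80.8 and 313 CPM in Control, all above 3.05 to 36.4 (−2.64 ± 0.86, adjusted p = 0.112). In all, 9 of 39 P450 genes did not overlap in this comparison, all lower, against 8.23% of the genes tested in either direction and 4.29% lower. Enterocyte markers were called in 0 of 12 (median 0.03). B and plasma cell markers were called higher in 2 of 7, goblet cell markers higher in 1 of 7, ileum markers lower in 1 of 7 and hepatocyte markers lower in 1 of 5. Paneth cell markers were positive in 7 of 7 (median 0.92), and fibroblast and smooth muscle markers in 0 of 8 each (medians −0.47 and −0.45), with 0 called in these 3 lists. The part of these markers in the P450 values was not tested. The library lowest in enterocyte markers was Pectin 4, where 11 of the 39 P450 genes also had their lowest value of the 22 libraries. The share of all genes lowest there is not given here, so the 11 is no result about the family. A link to the enterocyte markers was not tested. The count of 5 was 1 without Pectin 2, Pectin 4, Control 1, Control 2, PFOS 1, PFOS 2, PFOS 3, Inulin_PFOS 3 or Pectin_PFOS 4. It was 2 without Control 3, PFOS 4, Inulin 2, Inulin_PFOS 2 or Pectin_PFOS 3, and 3 without Inulin_PFOS 1 or Pectin_PFOS 2.

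Inulin alone called 0 of 39 P450 genes against cellulose by edgeR, as it did among all genes (0%). At an unadjusted p under 0.05, 10 P450 genes and 3257 genes in all passed. DESeq2 called 3 P450 genes and limma 0, with shares over all genes not given here. Cyp7b1 came closest, with 0.884, 2.50, 1.65 and 1.83 CPM in Control and 0.482, 0.278 and 0.223 in Inulin (−2.37 ± 0.46, adjusted p = 0.0652), and every Inulin library was lower. It was called without Control 1 or Pectin_PFOS 1 (adjusted p = 0.0130 and 0.0316). Cyp1b1 read 3.39, 9.83, 3.74 and 8.25 CPM in Control and 1.93, 3.17 and 2.56 in Inulin (−1.30 ± 0.39, adjusted p = 0.0931). It was called without Control 1 (adjusted p = 0.0361). For Cyp2d34, a Cyp2d copy, the values were 0.186, 0.212, 1.90 and 1.27 and 3.07, 20.1 and 1.95 CPM (3.23 ± 1.02, adjusted p = 0.106).

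Under PFOS exposure the fibres were compared with cellulose, so both of the next comparisons share the PFOS libraries. Inulin_PFOS vs PFOS called 3 of 39 genes (2 lower, 1 higher), against 2.64% of all genes tested (0.799% lower, 1.84% higher). Pectin_PFOS vs PFOS called 6 (4 lower, 2 higher), against 16.0% (8.33% lower, 7.70% higher). With library totals in place of TMM each called 1 higher and 10 lower, with the share over all genes not given here. Cyp26b1 was called lower in each. It read 5.68, 8.82, 2.74 and 2.35 CPM in PFOS, 0.963, 0.828 and 0.433 in Inulin_PFOS and 0.725, 0.585, 1.63 and 1.62 in Pectin_PFOS. Each fibre library was below each PFOS library, and the log2 fold changes were −2.71 ± 0.52, adjusted p = 0.00887, for inulin and −2.09 ± 0.45, adjusted p = 0.00575, for pectin. Without Inulin_PFOS 3 the inulin value was −2.47 (adjusted p = 0.0599), and no other P450 gene was called in that comparison either. Without PFOS 2, Inulin_PFOS 1 or Inulin_PFOS 2 it called 1, and without Control 4 it called 6. The pectin comparison called 2 without Pectin_PFOS 2 and 3 without PFOS 2, PFOS 3 or PFOS 4.

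Cyp1b1 read 4.39, 9.30, 7.34 and 7.00 CPM in PFOS, above every Pectin_PFOS library (−1.66 ± 0.35, adjusted p = 0.00550). Like Cyp26b1 on pectin, it was called in each of the 22 omissions and 7 other settings. Fibroblast markers were called lower in 6 of 8 in that comparison, against 8.33% of all genes tested. Their summed level was 428 to 576 CPM in PFOS and 124 to 253 in Pectin_PFOS. Their part in the Cyp1b1 value was not tested.

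Cyp2c65 fell on inulin, from 90.6, 94.7, 78.0 and 127 CPM in PFOS to 32.7, 26.2 and 32.0 in Inulin_PFOS (−1.69 ± 0.37, adjusted p = 0.0198), with no overlap. The call was lost without PFOS 2 or without any 1 of the 3 Inulin_PFOS libraries, with adjusted p up to 0.0711. Cyp2c66 was called lower on pectin (−2.99 ± 0.98, adjusted p = 0.0423), at 0.231, 0.241, 0.639 and 8.05 CPM in PFOS and 0.593, 0.117, 0.338 and 0.104 in Pectin_PFOS. That difference rested on PFOS 4, and without it the value was −0.37 (adjusted p = 0.760). Cyp2j9, an arachidonic acid epoxygenase of the brain and other tissues, read 1.57, 2.22, 1.87 and 3.69 CPM in PFOS and 0.922, 0.702, 1.52 and 1.04 in Pectin_PFOS (−1.15 ± 0.35, adjusted p = 0.0328), and its call was lost without PFOS 4 (adjusted p = 0.121) and in 5 other omissions.

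The copies Cyp2d34 (inulin and pectin) and Cyp2d12 (pectin) were called higher with fibre under PFOS. Cyp2d34 read 0.739, 0.289, 0.274 and 0 CPM in PFOS, 9.57, 4.25 and 5.20 in Inulin_PFOS and 2.11, 10.9, 0.733 and 1.88 in Pectin_PFOS (4.25 ± 1.10, adjusted p = 0.0441 for inulin and 3.56 ± 1.06, adjusted p = 0.0291 for pectin). The inulin libraries did not overlap PFOS, and Pectin_PFOS 3 lay within the PFOS range. Its call was lost in 10 omissions for inulin and 4 for pectin, including that of Pectin_PFOS 2 (adjusted p = 0.148). Cyp2d12 read 0.969, 0.530, 0.502 and 0 CPM in PFOS and 3.36, 6.15, 1.18 and 1.93 in Pectin_PFOS (2.63 ± 0.86, adjusted p = 0.0427), and lost the call in 9. Both are scarce, and 14.5% and 15.8% of their 31-base stretches occur in other genes, so reads of their neighbours can enter these counts.

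Neither interaction of PFOS with fibre, taken against cellulose, called a P450 gene (0% of all genes tested in each) by edgeR. At an unadjusted p under 0.05, 11 P450 genes passed for inulin and 11 for pectin, against 3099 and 1953 of all genes tested. DESeq2 called 4 and 1 of the 39, and limma 0 and 0, with shares over all genes not given here. Without Control 1, edgeR called 3 for inulin, Cyp2d26, Cyp2c44 and Cyp7b1. The smallest adjusted p was 0.0984 for Cyp2d26 (−2.61) and Cyp2c44 (−2.95) on inulin and 0.266 for Cyp4f14 on pectin (1.17). Averaged over the 3 diets, the PFOS effect called 0 of 39 by edgeR, against 0.159% of all genes. At an unadjusted p under 0.05, 9 P450 genes and 2349 of all genes passed. DESeq2 called 1 P450 gene and limma 0. Cyp4f16 came closest (−0.78 ± 0.21, adjusted p = 0.149), and it was called without Inulin 2 (adjusted p = 0.0466). Without PFOS 4 the averaged effect called 1 P450 gene, and without Inulin 3 the inulin interaction called 1, Cyp2d26.

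Single libraries, rather than groups, held the highest values of several inducible genes. Cyp2b10, the classical CAR target, read 4.25, 7.32, 6.02 and 186 CPM in PFOS and 4.28, 9.72, 18.8 and 7.03 in Control. PFOS 4 was far above every other library, and the log2 fold change of 2.36 (adjusted p = 0.822) became −0.72 without it. Cyp3a11 read 45.1, 105, 68.7 and 754 CPM in PFOS and 115, 162, 112 and 133 in Control, again with PFOS 4 alone high. That library also held the highest value of the 22 for Cyp2c44, Cyp2c65, Cyp2c66, Cyp2c68, Cyp2j6 and Cyp2j9, which makes 8 of 39 genes. The share of all genes highest there is not given here, so the 8 is no result about the family.

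PFOS 4 was not high for all of the family. Cyp3a44, a close relative of Cyp3a11, read 155, 128, 155 and 17.9 CPM in PFOS, where PFOS 4 was the low library. Summed enterocyte markers were 65791 CPM in PFOS 4 against 31880 to 40889 in the other 3 PFOS libraries, and conjugation enzymes (20 genes) 3081 against 1723 to 1816. Their part in the high P450 values was not tested.

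Control 4 stood apart in its own way. Cyp3a44 read 62.5, 70.5, 80.8 and 313 CPM in Control, and Cyp2e1, the ethanol-inducible enzyme, 0.651, 32.2, 6.44 and 215. Control 4 was the highest of the 22 libraries for both, and the lowest of its group for Cyp4f16, Cyp4f13 and Cyp2d26. Mitochondrial genes took 14.9% of its counts. Hepatocyte markers (9 genes) summed to 31.4 to 52.0 CPM in Control, and albumin did not exceed 1.94 CPM in any library. Cyp2e1 varied widely in every group but Inulin_PFOS, and in Pectin_PFOS it read 31.5, 6.61, 0.507 and 22.5 CPM.

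**Figure D5:**
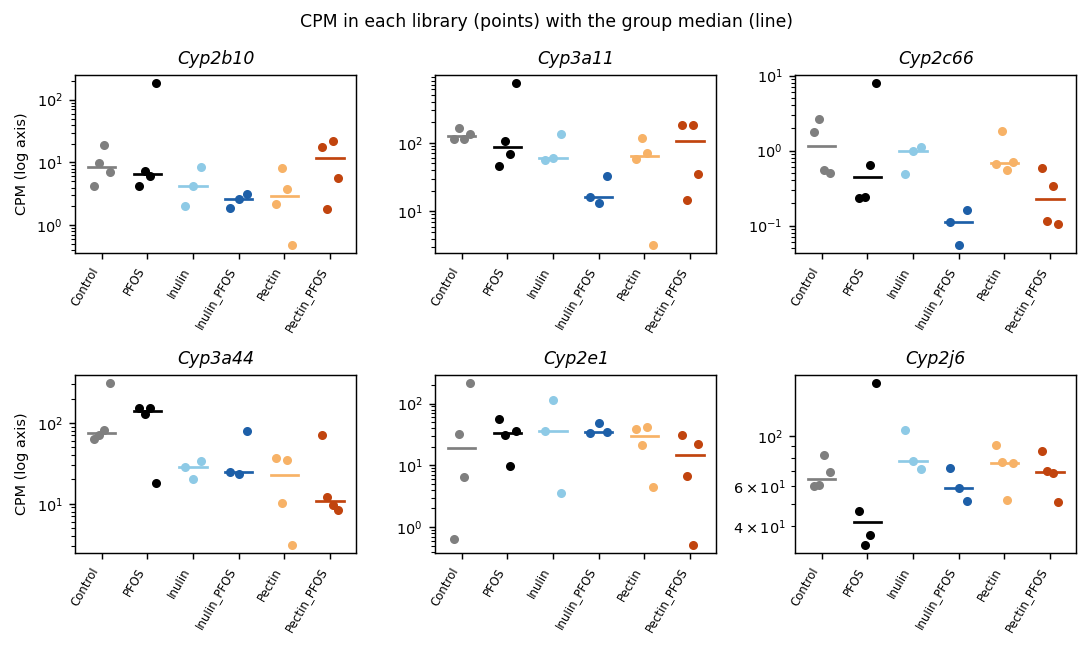
CPM (y axis, log scale) of 6 P450 genes in each library (points) of the 6 groups (x axis), with the group median as a line. PFOS 4 is the high point for Cyp2b10, Cyp3a11, Cyp2c66 and Cyp2j6, and Control 4 for Cyp3a44 and Cyp2e1.

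Genes not called in any of the 11 comparisons included some of the most abundant. Cyp3a13 read 741, 767, 814 and 219.6 CPM in Pectin and 1322, 733, 973 and 637 in Pectin_PFOS (0.53 ± 0.38, adjusted p = 0.321), with Pectin 4 far below the other unexposed libraries. Cyp3a25 read 255, 149, 97.8 and 61.8 and 378, 97.3, 161 and 110.1 CPM (0.40 ± 0.39, adjusted p = 0.467). Cyp2j6, an intestinal epoxygenase, lay between 33.1 and 171 CPM over the 22 libraries, and Cyp4f40 between 16.8 and 75.4. Cyp1a1 did not exceed 2.00 CPM, reached in Inulin 2. The vitamin D 25-hydroxylase Cyp2r1 and the oxysterol hydroxylase Cyp39a1 did not exceed 1.12 and 4.96 CPM. The copies Cyp2d9 (0.191 to 39.1 CPM), Cyp2d10 (0.319 to 8.23) and Cyp3a59 (0.354 to 3.03), and Cyp4f18 (0.856 to 19.7), were not called either.

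Of 20 subfamilies with no gene above the threshold, several are known for liver or endocrine roles. The PPAR-alpha-induced Cyp4a genes (5 in the table) had at most 13 counts in a library. Cyp7a1, the rate-limiting enzyme of classical bile acid synthesis, was at 0 in every library, Cyp8b1 had at most 3 counts and the steroidogenic Cyp11a1 at most 4. A count of 0 among 17613322 or more counts allows up to 3 counts per library, by counting error only.

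Other genes of P450 metabolism were taken from 7 fixed lists. Of 12 electron-transfer and haem-supply genes, 1 was called in Pectin_PFOS vs Pectin, the cytochrome Cyb5b (0.59 ± 0.17, adjusted p = 0.0231), and none on inulin or cellulose. In Pectin vs Control 2 of the 12 were called, both higher, against 1.99% of all genes tested. Alas1, the first enzyme of haem synthesis, was among them (0.96 ± 0.21, adjusted p = 0.0279). Of 14 nuclear receptors and partners, 4 were called higher and 1 lower in Pectin_PFOS vs Pectin, and 13 values were positive. Vdr, the vitamin D receptor, rose (0.94 ± 0.22, adjusted p = 0.00847), as did Nr1i2 (0.55 ± 0.17, adjusted p = 0.0293), Rxra and Arnt, while the aryl hydrocarbon receptor Ahr fell (−0.87 ± 0.24, adjusted p = 0.0186). None of the 14 was called on inulin or cellulose.

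Among 6 tested aryl hydrocarbon receptor feedback and target genes outside the family, Ugt1a6a was called lower in Pectin_PFOS vs Pectin (−1.37 ± 0.41, adjusted p = 0.0258) and none higher. Of 18 PPAR-alpha targets outside the P450 family, 1 was called higher and 3 lower there, and 7 values were positive. The thioesterase Acot1 (−1.88 ± 0.31, adjusted p = 0.00216) and the kinase Pdk4 (−1.43 ± 0.46, adjusted p = 0.0347) were among those that fell. Acot1 also fell in Inulin_PFOS vs Inulin (−1.86 ± 0.37, adjusted p = 0.0368). Averaged over 3 diets, 2 of 18 were called, both lower, against 0.159% of all genes tested. Acot1 was among them (−1.57 ± 0.19, adjusted p = 6.45e-04).

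Conjugation enzymes, which act after P450 enzymes, were called in 1 of 20 in Pectin_PFOS vs Pectin (higher), in 3 of 20 in Pectin_PFOS vs PFOS (1 higher, 2 lower), and by edgeR in 0 of 20 on inulin and on cellulose. Other oxidising and reducing enzymes were called in 5 of 18 on pectin, with Fmo5 (0.75 ± 0.23, adjusted p = 0.0261) and Xdh higher and Cbr3, Akr1b8 and Aox1 lower. Of 11 xenobiotic transporters 4 were called, all higher: the peptide carrier Slc15a1 (1.62 ± 0.35, adjusted p = 0.00606), the efflux pumps Abcc2 (1.36 ± 0.45, adjusted p = 0.0367) and Abcb1a (1.41 ± 0.46, adjusted p = 0.0358), and Slc22a4. The counts in Pectin_PFOS vs Pectin stand against the same 20.8% of genes tested, and those in Pectin_PFOS vs PFOS against 16.0%.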

How the data were processed

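The authors deposited expected (estimated) counts and TPM per gene, 22 columns each. HISAT, Bowtie2 and GRCm39 are listed, without versions, per the submitters' processing notes, and the counting program is not given in the sources used here. Gene coordinates in the deposited tables match GRCm38: of 46005 genes shared with GENCODE M21, 38860 have identical start and end. Deposited expected counts were rounded (3.84% to 4.85% of a library's values were fractional) and tested with edgeR 4.0.16 (robust quasi-likelihood, TMM scaling, default expression filter) in R 4.3.3, in 1 fit of 22 libraries with 6 group means. P-values were two-sided and Benjamini-Hochberg adjusted over 15763 genes, and a gene was called at an adjusted p under 0.05. SE was taken as |log2 fold change|/√F. CPM values are TMM-scaled. In all, 10 comparisons and 1 added after the data were seen were made. The scripts were checked on simulated counts.

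The P450 genes and gene lists were chosen with earlier results of these data known. Named genes are those called in any of the 10 comparisons, the 10 with the highest mean TPM, the 3 smallest p-values where fewer than 3 were called, and the 3 on each side of the count threshold. List genes are named where called, at most 4 a list and comparison by p, and the fifth where 5 were called. Some list genes are not reported here. Others in the text were singled out after their values were seen. Alternatives were RLE factors, library totals, no filter, DESeq2 1.42.0, limma 3.58.1 on log2(TPM + 1), the 2 groups alone, a replicate block and each library left out.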

Additional observations from a re-analysis of the deposited data

Results flagged for a closer look

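In groups of 4 libraries, 1 library stood far from the other 3 (a gap, relative to the group's range, past Dixon's 95% critical value) in 14 of the 108 gene-by-group sets examined over 27 named P450 genes (13%). The critical value assumes independent, normally distributed values, which CPM of genes from the same libraries need not be. Some of the 27 genes were named through such a library (Cyp2b10 and Cyp2c66, both high in PFOS 4). The 13% is thus a description and cannot be set against a rate by chance. PFOS 4 was high for Cyp2b10 (186 CPM), Cyp2c66 (8.05 CPM), Cyp3a11 (754 CPM) and Cyp3a25 (235 CPM). PFOS 1 was high for Cyp2s1 (71.8 CPM) and Cyp4f16 (365 CPM). Pectin_PFOS 1 was high for Cyp1a1 (0.856 CPM), Cyp27a1 (109 CPM) and Cyp2s1 (124 CPM), and Pectin_PFOS 2 for Cyp2d34 (10.9 CPM). Pectin 2 was high for Cyp2c66 (1.82 CPM), and Pectin 4 was low for Cyp3a13 (219.6 CPM). Control 3 was high for Cyp4v3 (378 CPM), and Control 4 was low for Cyp4f13 (33.9 CPM).

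The PFOS effect differed between pectin and inulin, by a test of the difference itself, for 17 of 39 P450 genes, against 25.4% of all genes tested. The comparison was added after the data were seen, so the count is a description. On the log2 scale the effect was higher on pectin for Cyp2d26 (4.19), Cyp4f13 (1.59), Cyp4f14 (1.72), Cyp2c55 (4.56), Cyp2c44 (2.71), Cyp27a1 (1.79), Cyp2u1 (3.60), Cyp4b1 (2.22), Cyp4f16 (2.28), Cyp2d22 (2.04), Cyp2c65 (2.06), Cyp2d40 (4.76), Cyp2c68 (1.75) and Cyp4v3 (2.21). It was lower on pectin for Cyp1b1 (−2.08), Cyp7b1 (−2.56) and Cyp20a1 (−1.19).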

How the results depend on the processing

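Under 7 other settings and the omission of each of 22 libraries, 1 of 60 single-gene values reversed, Cyp2b10 in PFOS vs Control (−0.72 without PFOS 4, in a range up to 2.86 over omissions). Counts of called P450 genes changed as follows, and the cause was not tested. The share of all genes called under each setting is not given here, so these counts are no result about the family. Inulin_PFOS vs Inulin gave 7 with DESeq2, 1 with limma (Cyp2c65), 0 with the 2 groups alone and 0 to 3 with a library left out. Pectin_PFOS vs Pectin gave 6 to 12 with a library left out. Inulin vs Control gave 3 with DESeq2 and 0 to 2 over omissions. Pectin vs Control gave 3 with RLE factors, 3 with library totals, 2 without the filter, 9 with DESeq2, 2 with the 2 groups alone and 0 to 7 over omissions. Inulin_PFOS vs PFOS gave 11 with library totals (1 higher, 10 lower), 10 with DESeq2, 17 with limma, 11 with the 2 groups alone and 0 to 6 over omissions. Pectin_PFOS vs PFOS gave 11 with library totals (1 higher, 10 lower), 2 without the filter, 10 with limma and 2 to 7 over omissions. The interactions gave 4 (inulin) and 1 (pectin) with DESeq2, and 0 to 3 and 0 to 0 over omissions. The averaged effect gave 1 with DESeq2 and 0 to 1 over omissions. The added comparison stayed within 1.5 times (12 to 18 over omissions), and PFOS vs Control stayed at 0 (0 to 0). With library totals the median of all genes shifted to −0.33 (Inulin_PFOS vs PFOS) and −0.41 (Pectin_PFOS vs PFOS).

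Replicate numbers are shared between groups, but deviations of same-numbered libraries correlated from −0.26 to 0.30, so these numbers were not taken to pair the samples. The sample titles also hold another number, which differs from the replicate number in some libraries. Pairing by that number was not examined, and these correlations cannot speak to it. With the replicate number as a block, Inulin_PFOS vs Inulin gave 1, Pectin_PFOS vs PFOS 3, Pectin_PFOS vs Pectin 12, Pectin vs Control 5, Inulin_PFOS vs PFOS 3, the added comparison 17, and the other 5 comparisons 0.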

Other observations

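Cyp24a1, the vitamin D 24-hydroxylase, lay just outside the count threshold and was chosen here after its values were seen. Its counts were 215, 12, 5 and 2 in PFOS 1 to 4, 2, 0, 0 and 0 in Control 1 to 4, and 0 to 9 in the other 14 libraries. Only PFOS 1 and PFOS 2 reached 10 counts, and these were also the libraries with the most Cyp26b1, the retinoic acid hydroxylase, at 5.68 and 8.82 CPM. No test was made.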
